A study of Mus musculus with 8 samples.

Results

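The genes described here encode acute phase and complement proteins of plasma: Hp, Itih4, Saa3, Orm1, Lbp, C3, Cfb, Cp and Serping1. They were chosen by name, for the function of their products, but with earlier results of these data known. Shares of these genes set against all probe sets are therefore descriptions. Of these 9 genes, 8 had at least 1 probe set listed for that gene alone in the platform annotation used here, among 12393 such genes in all, and together they had 14 of the 22626 probe sets tested. C3 is named only and was not analysed here. Where a gene had several probe sets (Cp had 7, each other gene 1), the one with the highest mean signal stood for it.

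Gene expression was measured in mouse lymph node (LN) on 8 Affymetrix GeneChip arrays, each hybridised with RNA pooled from at least 3 mice. Mice were 8 weeks old and were either H3RKO, which lack the histamine H3 receptor through the targeted allele Hrh3tm1Twl on a C57BL/6 background, or C57BL/6 wild type (WT). CFA+PTX mice received complete Freund's adjuvant (CFA, an oil emulsion with killed mycobacteria) and pertussis toxin (PTX), CFA mice received CFA alone, and LN was taken 24 h later. Control mice, called untreated here, had neither. H3RKO and WT had 1 array each after CFA+PTX, 1 each after CFA and 2 each untreated, so the injected groups had no replicate of their own. For the CFA+PTX group, the sample titles mention only PTX, whereas the sample descriptions mention both agents. The methods give female and male mice without the sexes of each pool, and 129-derived sequence linked to the targeted allele can remain in such a congenic strain. Lbp and Serping1 lie on chromosome 2 with Hrh3, 21.8 Mb and 95.3 Mb from it.

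The acute phase response is the change in plasma proteins that follows infection or injury, in which cytokines such as interleukin 6 and interleukin 1 act mainly on hepatocytes through the transcription factors STAT3, C/EBP and NF-kB. Complement is a cascade of plasma proteins in which cleavage of C3 marks particles for uptake and leads to the membrane attack complex. Liver is the main source of most of these proteins, but macrophages, stromal cells and adipocytes also make some of them, and Saa3 in particular is known as a serum amyloid A gene of the mouse that is expressed outside the liver.

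Some facts of all arrays touch the results. The probe set for Hrh3 read 7.20 to 7.29 in the 4 H3RKO arrays and 6.56 to 6.66 in the 4 WT arrays on the log2 scale. It was thus higher in H3RKO, and its position relative to the deleted part is not given in the sources used here, so it does not check the labels. Markers of salivary and lacrimal gland had mean signals of 5.38 on the array for WT after CFA+PTX and 9.96 on WT untreated array 1, against 12.84 to 13.53 in the other 6 arrays. Hence 2 WT arrays stood apart in their gland RNA. The injected-against-untreated differences of Saa3, Itih4 and Hp are also given without both, and those of the other genes are not. Of the 15 hepatocyte markers, 15 had a mean signal below the median probe set, the nearest to it being Ttr (6.97 to 8.49 in injected and 7.14 to 8.40 in untreated LN), and albumin (Alb) read 5.29 to 5.39 in injected and 5.39 to 5.53 in untreated LN. The hepatocyte list averaged 5.43 to 5.54 in injected and 5.41 to 5.62 in untreated LN, while B cell and T cell marker lists averaged 11.02 to 11.31 and 10.94 to 11.05 in injected LN and 11.17 to 11.25 and 10.86 to 11.17 in untreated LN.

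The promoters of Saa3 and Itih4, which had the largest positive differences after injection among these genes, are shown from RefSeq (GRCm38.p6) as the 250 bases before a start site, on the strand of the gene. The Saa3 window is chr7:46715677-46715926 on the minus strand and the Itih4 window is chr14:30886226-30886475 on the plus strand. Capitals mark matches, on either strand, to a STAT-type motif (TTCNNNGAA) or to a short C/EBP-type motif (TTNNGNAA), the second of which was added after the sequences had been seen.
Saa3: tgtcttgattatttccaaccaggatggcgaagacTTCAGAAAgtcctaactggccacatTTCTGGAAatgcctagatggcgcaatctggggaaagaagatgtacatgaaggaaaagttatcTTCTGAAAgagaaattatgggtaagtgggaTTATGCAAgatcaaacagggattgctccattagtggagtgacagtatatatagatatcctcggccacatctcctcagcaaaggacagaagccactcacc
Itih4: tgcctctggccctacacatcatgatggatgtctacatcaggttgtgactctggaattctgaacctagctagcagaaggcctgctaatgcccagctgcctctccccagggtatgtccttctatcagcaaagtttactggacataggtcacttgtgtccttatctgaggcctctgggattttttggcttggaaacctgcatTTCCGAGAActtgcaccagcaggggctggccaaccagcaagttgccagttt
Itih4 held 1 STAT-type match, TTCCGAGAA, which begins 51 bases before the start site. Of all 32851 windows in the table, 7.02% held such a match. Saa3 held 4 short C/EBP-type matches, at 216, 191, 129 and 99 bases before the start site, and 36.8% of all windows held at least 1. A longer C/EBP-type motif (TTNNGNAAT, in 10.2% of windows) and a NF-kB-type motif (in 4.11%) had no match in the windows of Saa3, Itih4 or Cp. The short motif overlaps the longer one, and a match is a description of the letters and not a binding site.

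Injection was examined first by setting the 4 injected arrays against the 4 untreated arrays, with genotype in the model. Saa3 rose 6.43-fold and was the only one of the 8 genes to pass an adjusted p under 0.05 (limma, Benjamini-Hochberg over all probe sets). In comparison, 0.00884% of all probe sets passed in the higher direction and 0.0177% in the lower direction. For Saa3, Itih4, Lbp, Cfb and Cp, all 4 injected arrays lay above all 4 untreated arrays (5 of 8 genes, against 3.07% of probe sets). Orm1 lay below in all 4 (1 of 8, against 2.98%), and Hp and Serping1 overlapped. At an unadjusted p under 0.05, 7 of the 8 genes passed, 6 higher and 1 lower, against 10.7% of probe sets. The median difference over the 8 genes was 0.34 on the log2 scale, against 0.01 over all probe sets. In whole LN, more RNA per cell and more cells of a type that expresses the gene cannot be told apart.

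**Figure D1:**
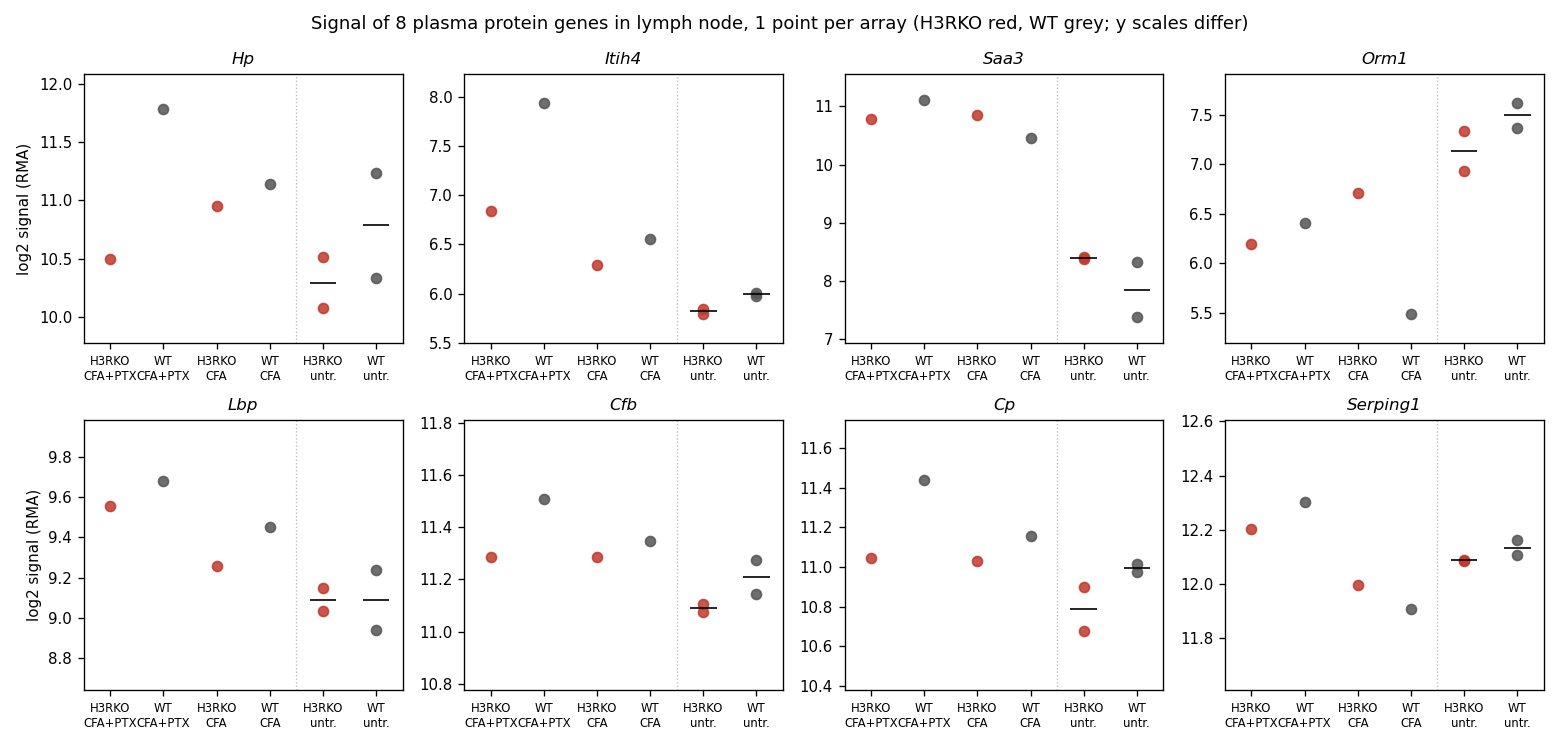
Log2 signal (y axis, RMA values, scales differ between panels) of 8 genes on each of the 8 arrays by genotype and treatment (x axis). Points are single arrays, red for H3RKO and grey for WT, and short lines are means of the untreated pairs. Saa3 separates all injected arrays (10.46 to 11.11) from all untreated arrays (7.38 to 8.41), and Orm1 runs the other way.

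Saa3 encodes serum amyloid A3, an apolipoprotein of high density lipoprotein that is induced in macrophages and adipose tissue. Its log2 signal was 10.78 in H3RKO CFA+PTX, 11.11 in WT CFA+PTX, 10.86 in H3RKO CFA and 10.46 in WT CFA. In untreated LN it was 8.37 and 8.41 in H3RKO and 7.38 and 8.32 in WT. The lowest injected array was 2.05 above the highest untreated array. Thus Saa3 was high in every injected array, and the spread within treatments was largest between the 2 WT untreated arrays. The difference of 2.68 ± 0.22 (SE) had an adjusted p of 0.0114 and was the largest positive difference among all 22626 probe sets. The adjusted p was 0.0665 without the WT CFA array, 0.0603 without H3RKO untreated array 1 and 0.0879 without the H3RKO CFA+PTX array, with differences of 2.77, 2.73 and 2.75. Leaving out both arrays with little gland RNA gave 2.33 and an adjusted p of 0.00134. Monocyte and macrophage markers averaged 9.96 to 10.08 in injected and 9.77 to 10.08 in untreated LN, and their part in the Saa3 difference was not tested. The other serum amyloid A genes were dim, with Saa1 between 4.73 and 5.02 in injected and between 4.68 and 5.21 in untreated LN, and Saa2 between 4.47 and 4.74 and between 4.28 and 4.58.

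Itih4 encodes an inter-alpha-trypsin inhibitor heavy chain, a plasma protein of the acute phase. It read 6.84 in H3RKO CFA+PTX, 7.94 in WT CFA+PTX, 6.29 in H3RKO CFA and 6.55 in WT CFA. The untreated arrays read 5.79 and 5.84 in H3RKO and 6.01 and 5.98 in WT. The untreated arrays lay close together, and the 2 CFA+PTX arrays were the highest. Its difference of 1.00 ± 0.28 (SE), a 2.00-fold higher signal, ranked 5 among the positive differences of all probe sets but had an adjusted p of 0.2998. Without the WT CFA+PTX array the difference was 0.67, and without both arrays with little gland RNA it was 0.69. Itih4 had a dim probe set, whose mean signal exceeded that of only 31.4% of all probe sets.

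Orm1 encodes orosomucoid 1, an acute phase lipocalin made by liver and also by adipocytes. It read 6.19 in H3RKO CFA+PTX, 6.41 in WT CFA+PTX, 6.71 in H3RKO CFA and 5.49 in WT CFA. Untreated arrays read 7.33 and 6.94 in H3RKO and 7.37 and 7.62 in WT. Orm1 was thus the 1 gene of the 8 whose signal was lower in every injected array, by 1.11 ± 0.25 (SE) on the log2 scale (2.17-fold, adjusted p = 0.242). Of 13 adipocyte markers measured, 12 were lower in injected LN, 8 of them at an unadjusted p under 0.05 (against 10.7% of all probe sets), and 0 passed the adjusted threshold. Their mean signal per array was 8.79 to 9.16 in injected and 9.03 to 9.50 in untreated LN, and Adipoq, which encodes adiponectin, read 10.93 to 11.51 and 11.51 to 12.16. Stromal markers averaged 10.07 to 10.25 in injected and 10.46 to 10.57 in untreated LN. Of 13 measured, 11 were lower and 2 higher in injected LN. At an unadjusted p under 0.05, 7 were lower and 1 higher, and 0 passed the adjusted threshold. Lum differed most, by -1.09 ± 0.16 (SE, adjusted p = 0.113). Cxcl13 ran the other way (0.28 ± 0.09), and Dcn differed by only -0.05 ± 0.07 (SE). The part of these cells in the lower Orm1 signal was not tested. Orm genes are close in sequence, and the paralogs read 3.31 to 3.52 (Orm2) and 5.35 to 5.62 (Orm3) in injected LN and 3.29 to 3.51 and 5.02 to 5.29 in untreated LN.

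Hp encodes haptoglobin, which binds free haemoglobin. It read 10.50 in H3RKO CFA+PTX, 11.79 in WT CFA+PTX, 10.95 in H3RKO CFA and 11.14 in WT CFA. Untreated arrays read 10.51 and 10.07 in H3RKO and 10.34 and 11.24 in WT. The injected and untreated values overlapped, with WT untreated array 2 above 3 of the 4 injected arrays. The difference was 0.56 ± 0.23 (SE, adjusted p = 0.446), and it was 0.26 without both arrays with little gland RNA. Lbp, which encodes the lipopolysaccharide-binding protein, read 9.56 in H3RKO CFA+PTX, 9.68 in WT CFA+PTX, 9.26 in H3RKO CFA and 9.45 in WT CFA, with 9.03 and 9.15 in untreated H3RKO and 8.94 and 9.24 in untreated WT. The groups did not overlap but were separated by only 0.02, and the difference was 0.40 ± 0.10 (SE, adjusted p = 0.278).

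Of the complement genes, Cfb encodes factor B, the protease of the alternative pathway convertase. It read 11.29, 11.51, 11.28 and 11.35 in the injected arrays, in the order H3RKO CFA+PTX, WT CFA+PTX, H3RKO CFA and WT CFA. It read 11.08 and 11.11 in untreated H3RKO and 11.14 and 11.27 in untreated WT. Cfb was thus bright in all arrays and differed by 0.21 ± 0.06 (SE, adjusted p = 0.296), a 1.15-fold higher signal. Its injected and untreated arrays were separated by only 0.0111. Serping1 encodes the C1 inhibitor, which blocks the first proteases of the classical pathway, and was the brightest of the 8 genes. It read 12.20 in H3RKO CFA+PTX, 12.30 in WT CFA+PTX, 11.997 in H3RKO CFA and 11.91 in WT CFA, with 12.09 and 12.09 in untreated H3RKO and 12.16 and 12.11 in untreated WT. The CFA+PTX arrays lay above the untreated arrays and the CFA arrays below them, so that the 4 injected arrays together differed by -0.01 ± 0.09 (SE, adjusted p = 0.982).

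Cp encodes ceruloplasmin, the copper-carrying ferroxidase of plasma. Its brightest probe set read 11.05 in H3RKO CFA+PTX, 11.44 in WT CFA+PTX, 11.03 in H3RKO CFA and 11.16 in WT CFA, with 10.68 and 10.90 in untreated H3RKO and 11.01 and 10.98 in untreated WT. All injected arrays were above all untreated arrays, but by a gap of only 0.0154, and the difference was 0.28 ± 0.08 (SE, adjusted p = 0.303). The 7 probe sets of Cp did not give 1 answer. A second probe set also separated the groups (10.36, 10.75, 10.25 and 10.53 in injected LN against 9.84, 10.04, 10.16 and 10.24 in untreated LN) with a difference of 0.40 ± 0.07 (SE, adjusted p = 0.164). The other 5 overlapped, with differences of 0.22, 0.22, 0.09, 0.08 and -0.03.

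**Figure D2:**
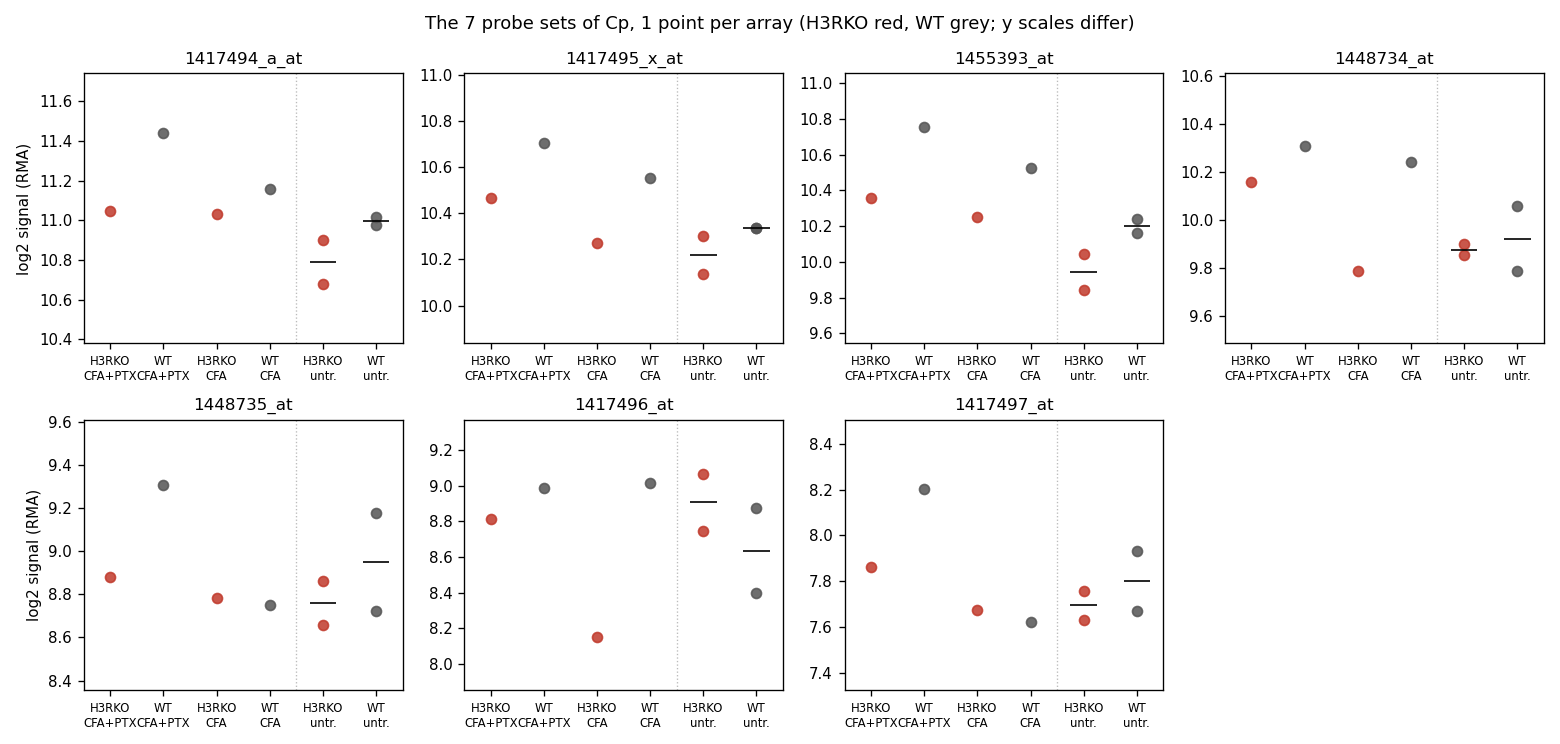
Log2 signal (y axis, RMA values, scales differ) of the 7 probe sets of Cp on each array by genotype and treatment (x axis), with points for single arrays (red H3RKO, grey WT) and lines for means of untreated pairs. In 2 of the 7 probe sets the injected arrays all lie above the untreated arrays.

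CFA+PTX and CFA were then each compared with untreated LN, in a model with genotype. These comparisons share the 4 untreated arrays. In CFA+PTX against untreated, 0 of the 8 genes and 0% of probe sets passed the adjusted threshold, and in CFA against untreated the counts were again 0 of 8 and 0% (limma). Under ordinary least squares 0 of 8 genes passed in both, with 0% of probe sets for CFA+PTX and 0.00442% for CFA. At an unadjusted p under 0.05, 6 of 8 genes passed after CFA+PTX (5 higher and 1 lower, against 12.3% of probe sets). After CFA it was 6 of 8 (4 higher and 2 lower, against 6.25%). Saa3 was 7.11-fold higher after CFA+PTX (2.83 ± 0.28 on the log2 scale, adjusted p = 0.0625) and 5.81-fold higher after CFA (2.54 ± 0.28, adjusted p = 0.131), the largest positive difference of any probe set in each. Itih4 was 2.80-fold higher after CFA+PTX (1.49 ± 0.19, adjusted p = 0.0836) and 1.43-fold higher after CFA (0.52 ± 0.19, adjusted p = 0.768). Saa3 was thus high after either injection. Orm1 differed by -1.01 ± 0.33 after CFA+PTX and by -1.21 ± 0.33 after CFA. For Lbp the differences were 0.53 ± 0.10 and 0.27 ± 0.10, for Cp 0.35 ± 0.09 and 0.20 ± 0.09, for Cfb 0.25 ± 0.07 and 0.17 ± 0.07 and for Hp 0.60 ± 0.30 and 0.51 ± 0.30 (SE in each case). Serping1 changed sign between them, with 0.14 ± 0.07 after CFA+PTX and -0.16 ± 0.07 after CFA (SE).

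**Figure D3:**
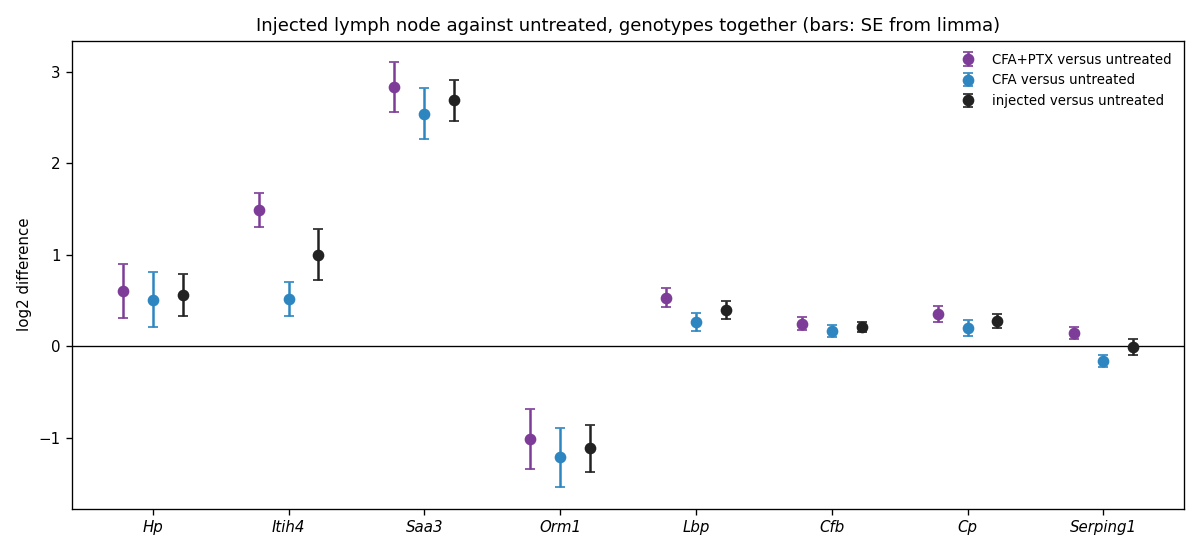
Log2 difference from untreated LN (y axis) of each gene (x axis) after CFA+PTX (purple), after CFA (blue) and for all injected arrays (black). Points are limma estimates and bars are their SE. Saa3 is the highest in each comparison (2.83, 2.54 and 2.68) and Orm1 the lowest.

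The added effect of PTX was tested by CFA+PTX against CFA, with 2 arrays each. All 8 genes were higher in CFA+PTX, against 50.5% of all probe sets. Their median difference was 0.23 on the log2 scale, against 0.00 over all probe sets. In this comparison 0 of 8 genes and 0% of probe sets passed the adjusted threshold, and 2 of 8 genes (Itih4 and Serping1) passed an unadjusted p under 0.05, against 5.47% of probe sets. Itih4 differed by 0.97 ± 0.21 (SE, adjusted p = 0.855) and Serping1 by 0.30 ± 0.08 (SE, adjusted p = 0.891). The WT CFA+PTX array, 1 of the 2 with little gland RNA, held the highest value of 7 of the 8 genes, while 21.2% of all probe sets were highest in that array. The part of this array in the higher CFA+PTX means was not tested. In H3RKO alone, where both arrays had gland RNA, 5 of the 8 genes had a higher value after CFA+PTX than after CFA. These were Itih4 (6.84 and 6.29), Lbp (9.56 and 9.26), Serping1 (12.20 and 11.997), Cp (11.0461 and 11.0295) and Cfb (11.2866 and 11.2849). Cp and Cfb were nearly equal in these single arrays. The share of all probe sets higher in this pair was not counted, so no result is read from the 5 of 8. The other 3 had a lower value, namely Orm1 (6.19 and 6.71), Hp (10.50 and 10.95) and Saa3 (10.78 and 10.86).

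Whether deletion of the H3 receptor changed these genes was asked over all treatments and within each. Over all treatments, 0 of 8 genes and 0% of probe sets passed the adjusted threshold, and 3 of 8 passed an unadjusted p under 0.05 (3.64% of probe sets), all lower in H3RKO. These were Hp (-0.62 ± 0.24), Itih4 (-0.43 ± 0.15) and Cp (-0.23 ± 0.07), each with an adjusted p of 0.999 (SE, limma). Both arrays with little gland RNA were WT, so genotype and gland content cannot be fully told apart here. In each of these genes the difference was widest after CFA+PTX. For Itih4 it was -0.17 in untreated LN, -0.26 after CFA and -1.10 after CFA+PTX. Within treatments, the criterion of the study's methods was used, an unadjusted p under 0.05 with a fold change over 2. The injected groups had 1 array each, so their spread was taken from the untreated pairs, and such a call compares those pools. In untreated LN, 0 of 8 genes met it, against 0.15% of probe sets, and Saa3 and Hp had the widest differences, of 0.54 ± 0.29 and -0.50 ± 0.31. For Saa3, WT untreated array 1, which had little gland RNA, read 7.38. WT untreated array 2 read 8.32, near the 8.37 and 8.41 of untreated H3RKO.

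After CFA+PTX, 2 of 8 genes met the criterion, against 0.362% of probe sets. All 8 genes were lower in H3RKO than in WT, while 43.1% of all probe sets were higher in H3RKO. Hp was 2.44-fold lower in H3RKO (-1.29 ± 0.44) and Itih4 2.14-fold lower (-1.10 ± 0.12), with adjusted p values of 1.00 and 0.252 (SE, limma). Itih4 was 6.84 in H3RKO and 7.94 in WT, with an SD of 0.04 in the H3RKO and 0.02 in the WT untreated pair. Hp was 10.50 in H3RKO and 11.79 in WT, with an SD of 0.31 in the H3RKO and 0.64 in the WT untreated pair (n = 2 each). The WT array in this comparison had little gland RNA and the H3RKO array had much (list means 5.38 and 13.30), so that genotype and gland content cannot be told apart here. The genotype difference was also compared with that in untreated LN. For this interaction 0 of 8 genes met the criterion (0.265% of probe sets), and Itih4 came closest with -0.92 ± 0.15 (SE, adjusted p = 1.00).

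After CFA, 1 of 8 genes met the criterion, against 0.225% of probe sets. Orm1 was 2.34-fold higher in H3RKO, with 6.71 in H3RKO and 5.49 in WT (1.22 ± 0.23, SE, adjusted p = 1.00). In untreated LN Orm1 ran the other way (-0.36 ± 0.16), and the interaction was 1.58 ± 0.28 (SE, adjusted p = 0.848), the 1 of 8 genes to meet the criterion against 0.667% of probe sets. Expressed per genotype, Orm1 after CFA differed from the untreated mean by -0.42 in H3RKO and by -2.01 in WT. Adipocyte markers in the same arrays averaged 9.16 in H3RKO CFA and 8.80 in WT CFA, against 9.18 and 9.03 in untreated H3RKO and 9.50 and 9.38 in untreated WT. Their part in the Orm1 difference was not tested. By the probe set that stood for each, the other 7 genes differed by between -0.26 (Itih4) and 0.40 (Saa3) after CFA. The probe sets of Cp did not give 1 answer here either. They ranged from -0.86 to 0.05 after CFA and from -1.14 to 0.22 in the interaction.

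**Figure D4:**
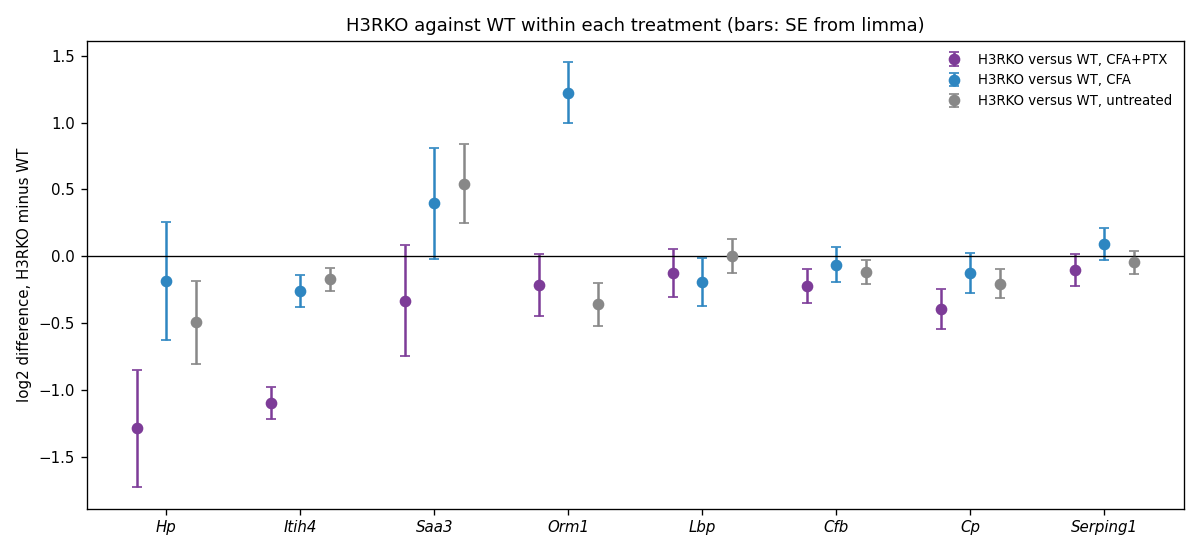
Log2 difference of H3RKO minus WT (y axis) for each gene (x axis) after CFA+PTX (purple), after CFA (blue) and untreated (grey). Points are limma estimates and bars their SE, which for the injected groups comes from the untreated pairs. Hp and Itih4 lie below -1 after CFA+PTX, and Orm1 above 1 after CFA.

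Other genes of the acute phase and complement systems were taken from lists by function. Of 33 other acute phase genes, 30 were measured and 22 of these were below the median signal. In injected against untreated LN 0 passed the adjusted threshold, 7 were higher and 0 lower at an unadjusted p under 0.05, and the median difference was 0.08. Of all probe sets 10.7% passed that unadjusted threshold in either direction, against which the counts of this and the following lists are to be read. Itih3, another heavy chain of the inhibitor family of Itih4, read 7.83 in H3RKO CFA+PTX, 8.29 in WT CFA+PTX, 7.40 in H3RKO CFA and 7.55 in WT CFA. It read 7.11 and 6.92 in untreated H3RKO and 7.24 and 7.22 in untreated WT. The difference was 0.65 ± 0.16 (SE, adjusted p = 0.269). Lcn2, the iron-siderophore binder lipocalin 2, differed by 0.61 ± 0.21 (SE, adjusted p = 0.387). It is also a neutrophil marker, and the neutrophil list averaged 7.74 to 8.63 in injected and 7.57 to 8.38 in untreated LN.

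In the complement lists 0 genes passed the adjusted threshold. Of the classical and lectin pathway 11 of 15 genes were measured, with 2 higher (C1qb and Masp1) and 0 lower at an unadjusted p under 0.05. The 2 with the largest differences were chains of the recognition molecule C1q. C1qb differed by 0.21 ± 0.08 (SE, adjusted p = 0.398) and C1qc by 0.19 ± 0.08 (SE, adjusted p = 0.481). Of the alternative and terminal pathway 7 of 9 were measured, with 3 higher and 0 lower. C6, a component of the membrane attack complex, differed by 0.82 ± 0.16 (SE, adjusted p = 0.190) and Cfp, which encodes properdin, by 0.24 ± 0.06 (SE, adjusted p = 0.252). Of regulators and receptors 15 of 16 were measured, with 1 higher (Cd46) and 1 lower (C3ar1), a share near that of all probe sets. C3ar1, the receptor of the C3a fragment, differed by -0.40 ± 0.09 (SE, adjusted p = 0.242) and Cr2, the B cell complement receptor, by -0.25 ± 0.11 (SE, adjusted p = 0.483).

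Of 30 genes for inducers of the acute phase and their signalling, 26 were measured, 0 passed the adjusted threshold, and 3 were higher and 1 lower at an unadjusted p under 0.05, again near the 10.7% of all probe sets. Socs3, the feedback inhibitor of interleukin 6 signalling, read 10.74, 10.57, 10.65 and 10.57 in the injected arrays, and 9.997, 10.28, 10.17 and 9.91 in the untreated arrays. Its 4 injected arrays all lay above its 4 untreated arrays. That held for 1 of the 26 genes, a share near the 3.07% of all probe sets. The Socs3 difference was 0.54 ± 0.08 (SE, adjusted p = 0.113). Cebpd, a C/EBP factor of the acute phase, differed by 0.42 ± 0.13 (SE, adjusted p = 0.357), and Il6 itself was dim, at 4.14 to 5.01 in injected and 3.76 to 4.40 in untreated LN.

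The genes whose pattern over the 8 arrays was most like that of these plasma protein genes were sought among 435 genes with an SD of at least 0.3. Pearson's r with the mean of the 8 genes was 0.94 for Serpina3n, 0.93 for Itih3, 0.93 for Bpifb5 and 0.90 for Tnfsf13b. Serpina3n, an acute phase serpin, read 10.80, 11.29, 10.60 and 10.75 in injected and 10.56, 10.33, 10.32 and 10.50 in untreated LN. For single genes, Itih3 was most like Itih4 (r = 0.98), Qprt most like Saa3 (r = 0.95), Clec10a most like Cp (r = 0.98), and Bpifb5 most like Lbp (r = 0.89) and Cfb (r = 0.94). Hp was most like Foxa1 (r = 0.88) and Serping1 most like Scin (r = 0.90). Orm1 was most like Nnat (neuronatin, r = 0.98), which read 7.82, 7.47, 8.19 and 6.50 in injected and 8.79, 8.50, 8.83 and 9.07 in untreated LN. Nnat was thus also lowest in WT CFA. Among the 8 genes, Cfb and Cp were the most alike (r = 0.92), and Orm1 ran against Saa3 (r = -0.78). The 8 arrays share treatments and the array with the highest values, so these correlations are descriptions.

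**Figure D5:**
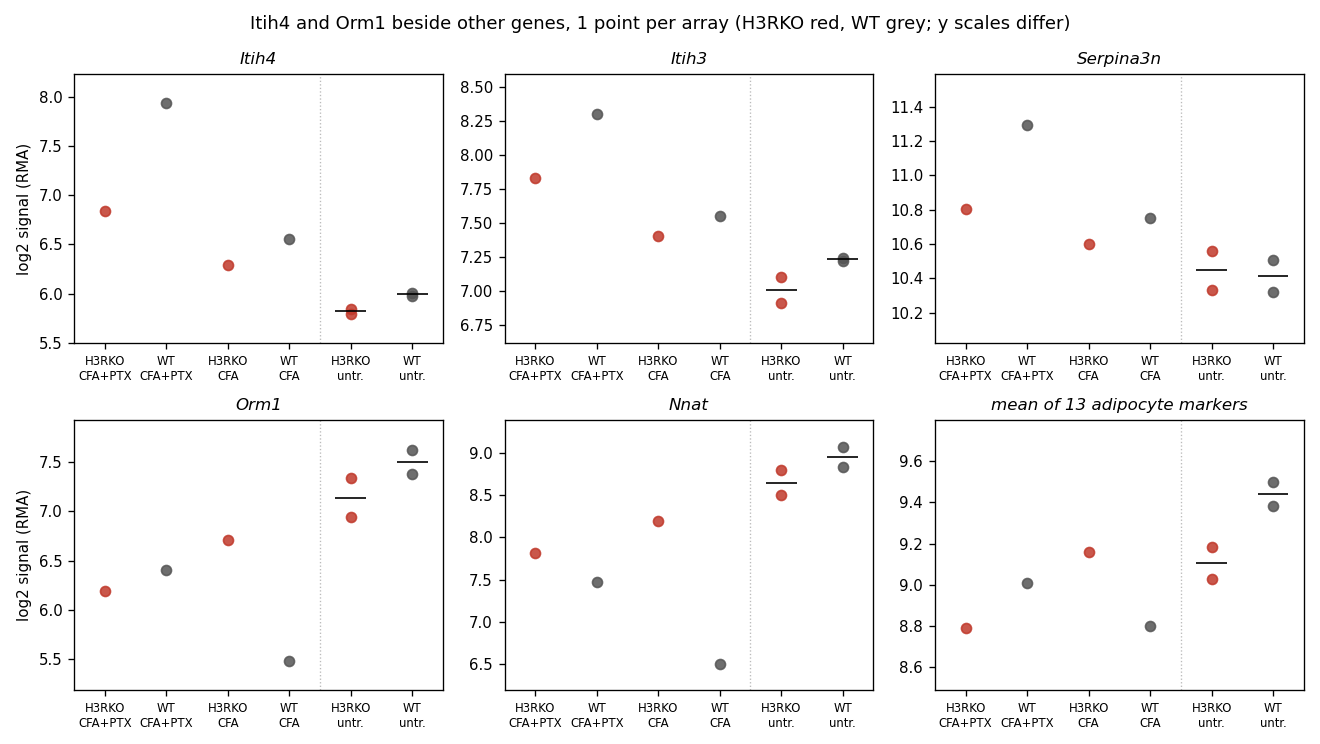
Log2 signal (y axis, RMA values, scales differ) on each array by genotype and treatment (x axis) for Itih4 with Itih3 and Serpina3n, and for Orm1 with Nnat and the mean of 13 adipocyte markers. Points are single arrays (red H3RKO, grey WT) and lines are means of untreated pairs. Itih3 and Itih4 are highest in WT CFA+PTX (8.29 and 7.94), and Orm1 and Nnat are lowest in WT CFA (5.49 and 6.50).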

How the data were processed

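Total LN RNA from pools of at least 3 mice was hybridised to Affymetrix mouse arrays, 1 array per pool. The authors deposited log2 signals made by robust multi-array averaging (RMA), which background-corrects and quantile-normalizes probes and summarises them per probe set (range 2.42 to 14.4, median 7.97). No scanner files were used here, so saturation and background could not be checked. The 64 control probe sets were set aside, which left 22626 for testing. Of these, 20380 carried 1 gene in the platform annotation, 691 several and 1555 none listed there. A gene was named only from a probe set with 1 gene, and its brightest such probe set stood for it.

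Models were fitted in limma 3.58.1 (R 4.3.3) on all 8 arrays: genotype and injection (5 residual degrees of freedom), genotype and treatment (4), or 6 group means (2). P-values were Benjamini-Hochberg adjusted over all probe sets, with a threshold of 0.05. Within-treatment genotype contrasts and interactions used the criterion of the study's methods (unadjusted p under 0.05, fold change over 2). The fits were tested on simulated data. The number of pools limits precision, and p-values measure the spread that each model leaves between these pools. In the first model this includes the difference between CFA+PTX and CFA. In the first and second it includes any difference in response between genotypes. In the model of 6 group means it comes from the untreated pairs alone. All 9 genes are named, and of each pathway list those passing the threshold or, with none passing, the 2 with the largest differences. Others named were chosen after their values were seen, as was the set of arrays with little gland RNA. The members and lists were chosen with earlier results of these data known. Promoters and positions are from RefSeq, and windows of Hp, Orm1, Lbp, Cfb and Serping1 were not analysed here.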

Additional observations from a re-analysis of the deposited data

Results flagged for a closer look

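The genotype difference of Orm1 after CFA differed from that in untreated LN by 1.58 ± 0.28 on the log2 scale (SE, limma). The criterion of an unadjusted p under 0.05 with a fold change over 2 marked it, and the adjusted p was 0.848. The signal was 6.71 in H3RKO CFA and 5.49 in WT CFA, against 7.33 and 6.94 in untreated H3RKO and 7.37 and 7.62 in untreated WT, with 1 array in each CFA group.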

How the results depend on the processing

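The counts of the 8 genes that passed depended on the settings as follows, and the cause was not tested except where named. In injected against untreated LN (1 gene, Saa3), 0 passed under ordinary least squares, 0 in the model of 6 groups (Saa3 adjusted p = 0.0586), 0 with probe sets of suffix x, s or a left out (which removes Saa3, Itih4 and Cp) and 3 (Itih4, Saa3 and Orm1) by unadjusted p with a fold change over 2. Without single arrays the count was 0 to 1, and the Saa3 difference stayed at 2.33 to 2.82 with an adjusted p of 0.00134 to 0.374 over all alternatives. For CFA+PTX against untreated (0 genes), 1 passed with a trend and robust prior (Itih4), 1 in the model of 6 groups (Itih4), 1 with dim probe sets left out (Saa3), 2 with the mean of a gene's probe sets, 3 by unadjusted p with a fold change over 2, and 0 to 1 without single arrays (1 without WT untreated array 1, Saa3, or without the H3RKO CFA+PTX array, Itih4). For CFA against untreated (0 genes), 1 passed without both arrays with little gland RNA (Saa3) and 2 by unadjusted p with a fold change over 2.

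For H3RKO against WT untreated (0 genes), the count was 0 to 1 without single arrays (Saa3 without WT untreated array 2). After CFA (Orm1) it was 0 under ordinary least squares, 0 with dim probe sets left out, which removes Orm1, and 0 by adjusted p, and the CFA interaction gave 0 under the same 3 settings. After CFA+PTX (Hp and Itih4) it was 1 under ordinary least squares (Itih4), 1 with a trend and robust prior (Itih4), 1 with dim probe sets left out (Hp), 1 with suffixed probe sets left out (Hp) and 0 by adjusted p. Leaving out dim probe sets or suffixed probe sets removes Itih4, so these settings do not test it. The CFA+PTX interaction (0 genes) gave 0 to 2 without single arrays (Hp and Saa3 without WT untreated array 2) and 1 at a fold change over 1.5 (Itih4). The Serping1 difference in injected LN was -0.01 and changed sign to 0.000325 with arrays centred on their medians. It was -0.083 to 0.075 without single arrays. The injected-against-untreated differences of the other 7 genes kept their direction in every alternative run, and no alternative was run for single genes outside the 8.

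Same-numbered untreated arrays deviated with a correlation of 0.12 over probe sets. The sample titles do not say whether the numbers pair the samples. With the replicate number as a block (replicate block), 1 gene passed in injected against untreated LN (Saa3, 2.68, adjusted p = 0.0109), and the count changed in no other comparison run with it. Signal over background was not analysed here, and the probe sets of Itih4 and Orm1 were dimmer than the median.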
